A study of Mus musculus with 610 samples.

Results

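Sox13-undetected B6 DN1d cells were the thymus progenitors of one sorted population in which the assay for Sox13 gave no signal before the last recorded cycle. They were chosen by that 1 reading: among the columns of B6 DN1d cells, all those with a Sox13 threshold cycle (Ct) of exactly 24, the ceiling of the table. The rule found 130 of 223 B6 DN1d cells, in a series of 610 cells and 48 assays, with 36, 39 and 55 of them in runs 1, 2 and 3. The lowest-expressing B6 DN1d cells with Sox13 had a Ct of 22.6, 19.8 and 19.6, so that few cells lay near the boundary. The other 93 B6 DN1d cells, 36, 31 and 26 by run, had Sox13 detected. Single cells were sorted from mouse thymus, captured on a Fluidigm C1 and read by quantitative PCR after a preamplification step, and the study concerned progenitors of Tgd17 cells, a class of gamma delta T cells producing interleukin 17.

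The donors of B6 DN1d cells were C57BL/6J mice aged 7 to 10 days after birth, and the sorted cells were live, TCRd-, Lin-, CD44+, CD25-, CD24+ and cKit-. Tcrd-/- cells (B6.129P2-Tcrd tm1Mom) had that gate and age as well and filled 1 run. Rag1-/- cKit- cells (B6.129S7-Rag1 tm1Mom) were live, TCRd-, Lin-, CD44+, CD25- and cKit-, had no CD24 gate, and were taken on postnatal days 0 to 2, in 3 runs. DN2 cells were live CD44+ CD25+ cKit+ cells of C57BL/6J mice of days 7 to 10, in 1 run. Both knockouts are germline alleles, so that every cell of those mice carries them. Neither the number of mice behind a run nor whether mice were pooled is given in the labels. The p-values below therefore take runs as replicates, and a portion of the variation from run to run can be technical. That variation was pooled over assays or pairs, so a p-value is not set by the runs of its own assay alone.

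The earliest thymus progenitors, called double negative 1, are a mixture by surface markers, and the CD24+ cKit- fraction called DN1d is known to give rise to Tgd17 cells. Sox13 is an HMG box transcription factor of that lineage, acting beside the related factors Sox4, Tcf7 and Lef1. The same gate can hold cells of other fates: innate lymphoid precursors, which rely on Id2, Zbtb16, Nfil3 and the interleukin 7 receptor, and myeloid or mast cell precursors, which rely on the ETS factor PU.1, the product of Spi1. T-bet, the product of Tbx21, drives type 1 effector programmes, and Gata3 is needed for the T and several innate lymphoid lineages.

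Level below means 24 minus Ct, in PCR cycles, with 0 for a reaction that was not detected, and any level above 0 counted as detection of that assay. Shares of cells are means over 3 runs ± SD. Levels of different assays were not compared, since each has its own primers. The label of the cells was checked against 4 marker genes given for them, Csf2rb2, Gp49a, Cdh1 and Bhlhe40. Each was detected in a minority of the cells in every run, between 13.9% (Cdh1, run 1) and 36.4% (Bhlhe40, run 3). The cells are therefore called here by their rule, not as a cell type. Whether they were a mixture was not tested, and a failed reaction and an absent transcript give the same value.

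All 48 assays can be placed by the share of these cells in which they were detected. Gapdh, the reference gene, was found in every cell, and Ets1, Gata3 and the scavenger receptor gene Scart2 in over 90%. Tbx21, E2f2, Sox4, Id2, Runx1, Bcl11b, Il7r and the E12 form of Tcf3 were found in 50% to 90%. A further 24 assays lay between 10% and 50%, and 8 below 10%. Csf1r, Rag2 and Vd5-Jd1 were detected in 0 of 130 cells, so their shares could be up to 2.31%, and Sox13 in 0 by construction.

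**Figure D1:**
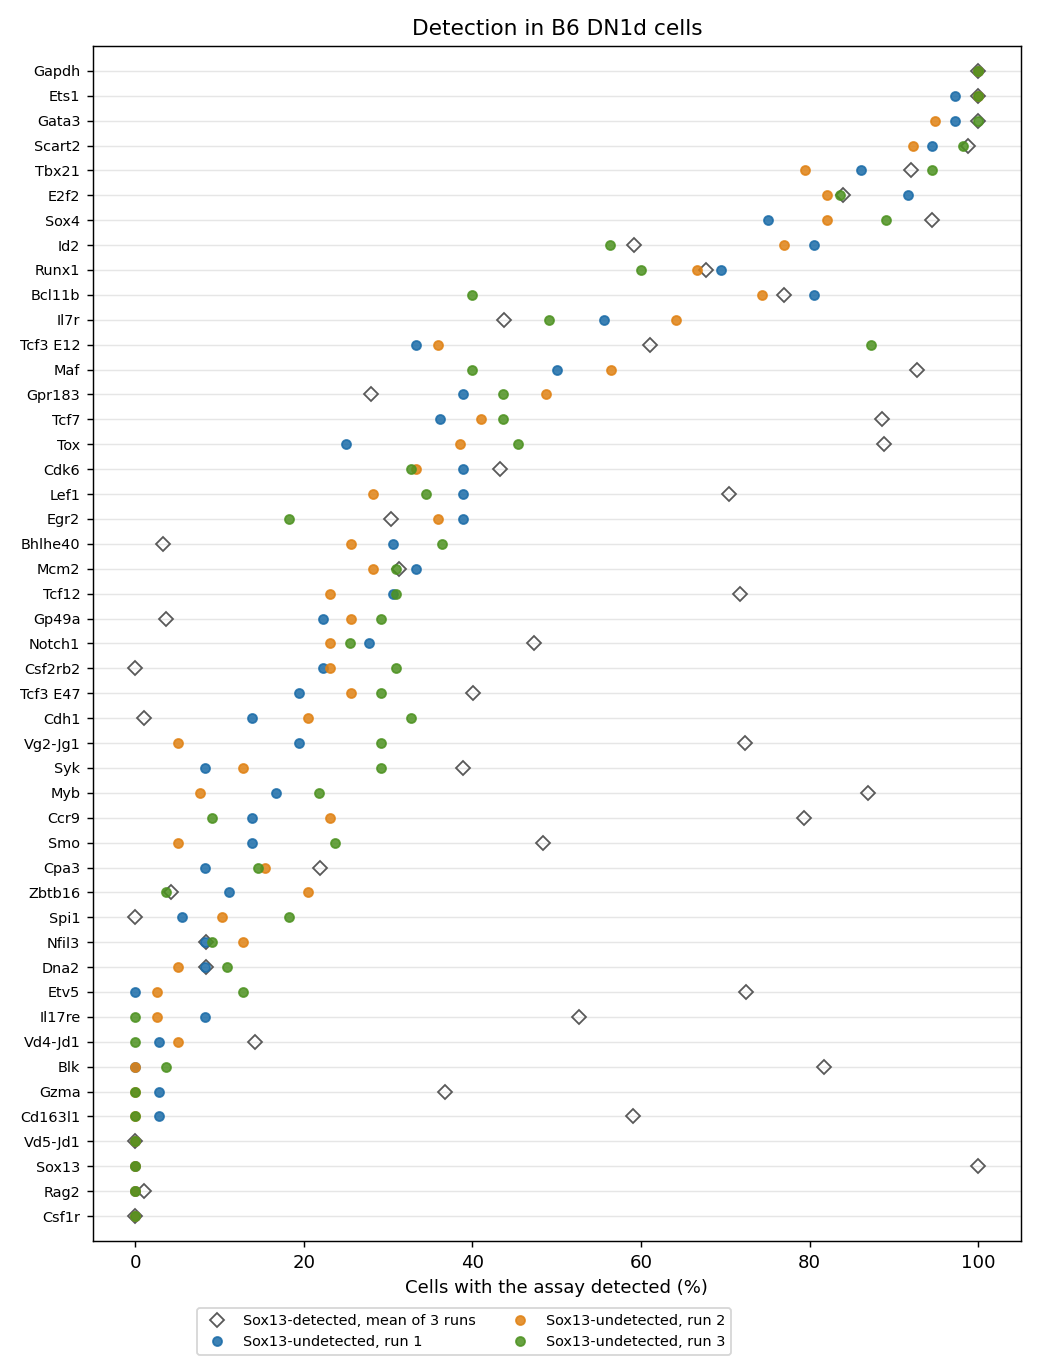
The horizontal axis gives the share of B6 DN1d cells (%) with each assay of the vertical axis detected, sorted by the mean share in Sox13-undetected cells. Filled circles are the 3 runs of Sox13-undetected cells (36, 39 and 55 cells) and open diamonds the mean of the 3 runs of Sox13-detected cells. Circles of 1 assay mostly lie close together, except for the E12 form of Tcf3 and Bcl11b, and the diamonds of Csf2rb2, Spi1, Cdh1, Gp49a and Bhlhe40 lie at the left of their circles.

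The runs gave similar shares for most assays: the range over 3 runs was under 10 percentage points for 27 of 48, with a median of 9.53 points. It reached 30 points or more for 2 assays. The E12 form of Tcf3, an E protein that opens lymphoid genes, was detected in 33.3%, 35.9% and 87.3% of cells in runs 1, 2 and 3, and Bcl11b, the zinc finger factor of T cell commitment, in 80.6%, 74.4% and 40%. In Sox13-detected cells of the same runs these shares were 50%, 48.4% and 84.6% for the E12 form and 100%, 100% and 30.8% for Bcl11b, so run 3 stood apart in both classes of cell. Results on these 2 assays rest on which runs are used.

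The 8 genes used to sort these cells were Id2, Il7r, Tbx21, Gata3, Tcf7, Vg2-Jg1, Csf2rb2 and Gpr183. Id2, which blocks E proteins, was detected in 80.6%, 76.9% and 56.4% of the cells of runs 1, 2 and 3. Where it was detected its level had a median of 6.68, 7.0 and 6.05 and spanned 0.35 to 12.95 over the runs. Run 3 was the lowest in both share and median, and the lowest detected level was 0.63, 0.35 and 2.13 in runs 1, 2 and 3.

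Il7r, the interleukin 7 receptor chain that lymphoid progenitors need, was detected in 55.6%, 64.1% and 49.1% of cells. Its median level in those cells was 10.08, 10.37 and 8.94. Most cells had either a high Il7r level or none. A detected level below 3 cycles was seen in 2, 0 and 5 cells of runs 1, 2 and 3.

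Tbx21 was detected in 86.1%, 79.5% and 94.5% of cells, and its level differed widely between the runs. The lowest, median and highest levels in cells with Tbx21 were 0.26, 5.36 and 10.28 in run 1, 0.02, 2.85 and 6.12 in run 2, and 0.99, 9.38 and 12.57 in run 3. The median of run 3 was above every level of run 2. The medians of Sox13-detected cells followed the same order, 4.72, 3.25 and 9.28. Detecting Tbx21 only at a Ct below 22 lowered its mean share in the Sox13-undetected cells from 86.7% to 75.7%.

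Gata3 was detected in 97.2%, 94.9% and 100% of cells, with medians of 10.08, 9.79 and 9.75, and so separated almost no cells by detection. Only 3 of 130 cells lacked it.

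Tcf7, the HMG box factor TCF-1 that starts the T cell programme, was detected in 36.1%, 41% and 43.6% of cells. Its median level there was 9.16, 7.51 and 10.48. The runs agreed on the share, and Tcf7 was the gene of the 8 with the smallest SD over runs apart from Gata3: 40.3% ± 3.82.

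Vg2-Jg1 reads a rearranged T cell receptor gamma gene. It was detected in 19.4%, 5.13% and 29.1% of cells, or 7, 2 and 16 cells. Its levels ran from 3.02 to 7.17 in run 1 and from 2.83 to 10.78 in run 3, but the 2 cells of run 2 had levels of 0.04 and 0.10 only, at the detection limit. A sorting by this assay therefore rests on runs 1 and 3.

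Csf2rb2, a beta chain of the mouse interleukin 3 receptor, was detected in 22.2%, 23.1% and 30.9% of cells, or 8, 9 and 17 cells. Its median level there was 9.25, 9.07 and 9.38, and only 1 cell, of run 1, lay near the limit at 0.17. Gpr183, the oxysterol receptor EBI2 that guides cell migration, was detected in 38.9%, 48.7% and 43.6%, with medians of 8.64, 7.46 and 8.99.

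**Figure D2:**
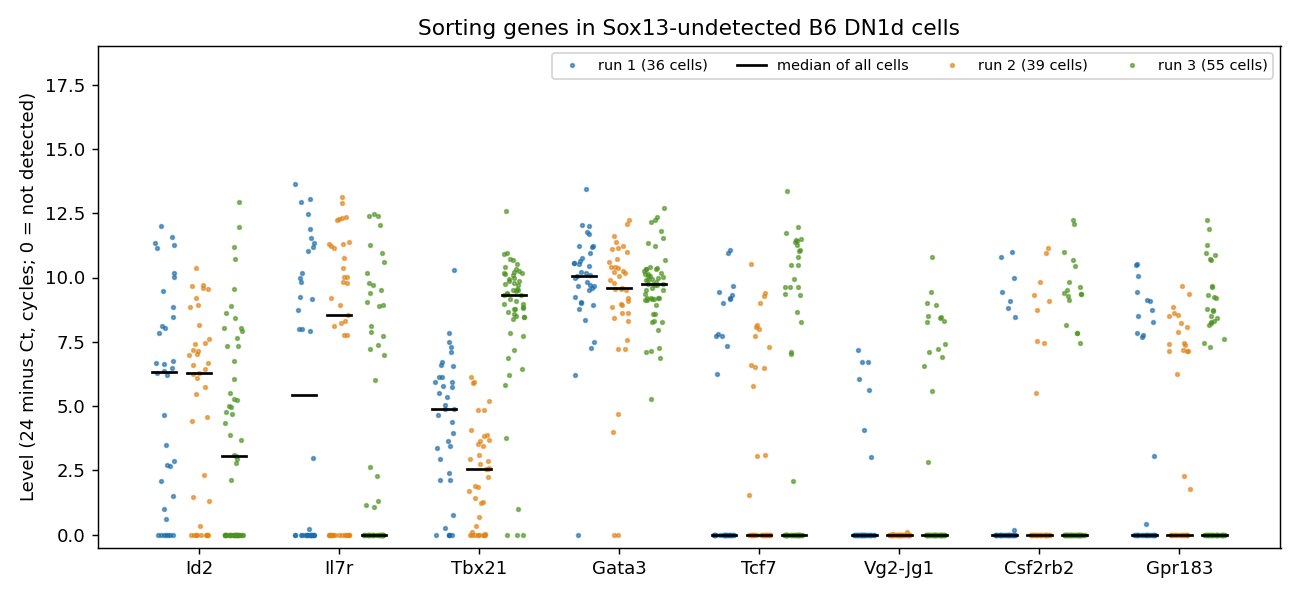
Each point is 1 Sox13-undetected B6 DN1d cell, with the level (24 minus Ct, cycles; 0 means not detected) on the vertical axis and the 8 sorting genes, split by run, on the horizontal axis; black bars are medians over all cells of a run, undetected ones included. Tcf7, Csf2rb2 and Gpr183 show a high group and a group at 0 in each run, Gata3 a single high group, and Tbx21 a level that shifts between runs.

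Taken as detected or not, the 8 genes split the 130 cells into 47 patterns, of which 20 were held by 1 cell each. A cell had from 1 to 7 of the genes, with a median of 4. The most frequent pattern, Id2, Il7r, Tbx21 and Gata3 without the other 4, was held by 9 cells, 3, 6 and 0 by run. The same pattern with Tcf7 added was also held by 9 cells, 4, 3 and 2 by run, and with Gpr183 added by 8 cells. No pattern held more than a small part of the cells.

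Whether 2 genes tended to fall in the same cells was asked with the natural log odds ratio of detecting both, which is 0 when detection of one says nothing about the other. It was computed for each run, for pairs of an anchor gene (a sorting or marker gene) with any other assay, and tested with limma over the 3 runs. Of the 11 anchors, Gata3 was detected in too many cells and Vg2-Jg1 in too few cells of run 2 to be fitted, which left 207 pairs of 28 assays. Of these, 33 passed an adjusted p of 0.05, or 15.9%: 13 pairs (6.28%) were detected together more often and 20 (9.66%) less often. All 33 had the same sign in each of the 3 runs. Some pairs that did not pass had this too, such as Gp49a with Ccr9 (-1.38, -0.92 and -1.66), so it is not particular to the calls. Pairs share genes and are not independent. limma pooled the spread over pairs in full, so that every log odds ratio carries the same SE of 0.52, which does not show how well the runs agree on a single pair.

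Among the sorting genes themselves 15 pairs were fitted and 1 passed, Tcf7 with Csf2rb2. Only 2 cells had both, against 51 with Tcf7 alone, 32 with Csf2rb2 alone and 45 with neither, and the log odds ratio was -2.70, -0.97 and -4.08 in runs 1, 2 and 3 (mean -2.58, adjusted p = 2.95e-05). Id2 and Il7r were detected together in 58 cells and both absent in 26, with a mean log odds ratio of 1.21 that did not pass (adjusted p = 0.101) but passed under 3 of 9 alternatives: detection only at a Ct below 22, stratification by assay number and a Spearman correlation of level. The next pairs in size were Il7r with Csf2rb2 at -1.08, Tbx21 with Csf2rb2 at 1.07 (33 of the 34 Csf2rb2 cells had Tbx21) and Csf2rb2 with Gpr183 at 0.97, with adjusted p of 0.154, 0.155 and 0.213. The other 10 pairs of sorting genes had mean log odds ratios between -0.39 and 0.46 and adjusted p of 0.675 or more. Of 72 cells with Il7r, 28 had Tcf7, and of 58 without it, 25 did (log odds ratio -0.09).

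The strongest links joined 3 of the 4 marker genes. Csf2rb2, Gp49a, which encodes an immunoglobulin-like receptor of mast and myeloid cells, and Cdh1, which encodes E-cadherin, were detected in the same cells. Gp49a and Cdh1 were found together in 27 cells, Gp49a alone in 7 and Cdh1 alone in 4 (log odds ratios of 4.495, 5.30 and 3.82 by run, mean 4.54, adjusted p = 1.82e-14). Csf2rb2 and Gp49a shared 29 cells, with 5 cells for each alone (mean 4.26, adjusted p = 4.05e-13), and Csf2rb2 and Cdh1 shared 27 (mean 4.24, adjusted p = 4.05e-13). These 3 pairs passed under each of the 9 alternative settings run. Bhlhe40, a basic helix-loop-helix repressor and the remaining marker, joined Gp49a less strongly, at 1.54 (adjusted p = 0.0231), and this call was lost without run 1 (0.0728) or run 2 (0.475).

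Cpa3, the carboxypeptidase of mast cell granules and early progenitors, lay with the same 3 genes. It was detected in 17 of 130 cells, and 14 of these had Cdh1, 14 Csf2rb2 and 14 Gp49a. Its mean log odds ratios with the 3 were 3.24, 2.90 and 2.88 (adjusted p = 7.33e-08, 2.09e-06 and 2.25e-06). Spi1 was detected in 2, 4 and 10 cells of the runs, too few in run 1 for the fit, and 11 of the 31 cells with Cdh1 had it.

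Tcf7 marked the opposite side. It was detected together with Tox, an HMG box factor of T and innate lymphoid development, in 38 cells (log odds ratios of 1.62, 1.23 and 5.22, mean 2.69, adjusted p = 1.21e-05), with Myb, a factor of proliferating progenitors, at 2.02, with Lef1 at 1.83, with the kinase gene Cdk6 at 1.74, with the E47 form of Tcf3 at 1.65 and with the E protein gene Tcf12 at 1.41. It was detected less often with Cdh1 (-2.35), Gp49a (-2.18) and Cpa3 (-1.56) as well as with Csf2rb2. The pair with Csf2rb2 passed under each of the 9 alternatives, but the other 9 pairs of Tcf7 were lost without run 2 (adjusted p between 0.074 and 0.319) and 7 of them without run 3. Those with Cdk6, the E47 form, Cpa3 and Tcf12 were also lost without run 1 (0.0524, 0.129, 0.139 and 0.0619). The pairs with Cpa3 and Tcf12 passed under 4 of the 9 alternatives each. The 3 marker genes in turn were detected less often with Lef1, Tox, Cdk6 and the E47 form, at mean log odds ratios between -2.50 and -1.69. Of these 12 pairs 10 were lost without run 2 (adjusted p between 0.0801 and 0.235) and 10 without run 3 (0.053 to 0.25), and those of Gp49a with Tox, Cdk6 and the E47 form also without run 1 (0.129, 0.0724 and 0.0926). Csf2rb2 and Lef1, which passed under each of the 9 alternatives, shared 1 cell, with 33 and 43 cells for each alone (-2.48, adjusted p = 5.71e-05).

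Of the 33 pairs, 24 held Csf2rb2, Gp49a or Cdh1 and 7 more held Tcf7. The remaining 2 were Il7r with Myb (-2.11; 5 cells with both, adjusted p = 8.31e-04) and Gpr183 with Ccr9, a pair of homing receptor genes (-1.50; 3 cells with both, adjusted p = 0.0283). Both were lost without run 1 (0.153 and 0.378) or run 2 (0.319 and 0.26). By design each fitted anchor was in 27 of the 207 pairs, so anchors fill many pairs whether called or not. Of these 27, Csf2rb2, Gp49a and Cdh1 each had 9 called and Tcf7 had 10, beside 15.9% of all pairs. Id2 and Tbx21 had 0 of 27 pairs each past the limma threshold, with 2 and 3 at an unadjusted p below 0.05. Stratified by assay number 2 and 1 of their pairs passed, and by a Spearman correlation of level 6 and 2, the pair of Id2 and Il7r being among those of Id2 both times. With detection only at a Ct below 22, and with 1 added before the log, Id2 had 1 pair each (Il7r and Sox4). The number of calls depended on the runs, most on runs 2 and 3. Without run 2 there were 9, all among the 33, and without run 3 there were 19, of which 14 were among the 33. Without run 1 there were 26, of which 23 were among the 33. For Tcf7 with Csf2rb2, Cdh1 and Gp49a the log odds ratio of run 2 was the nearest to 0 of the 3 runs, at -0.97, -0.77 and -1.16.

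**Figure D3:**
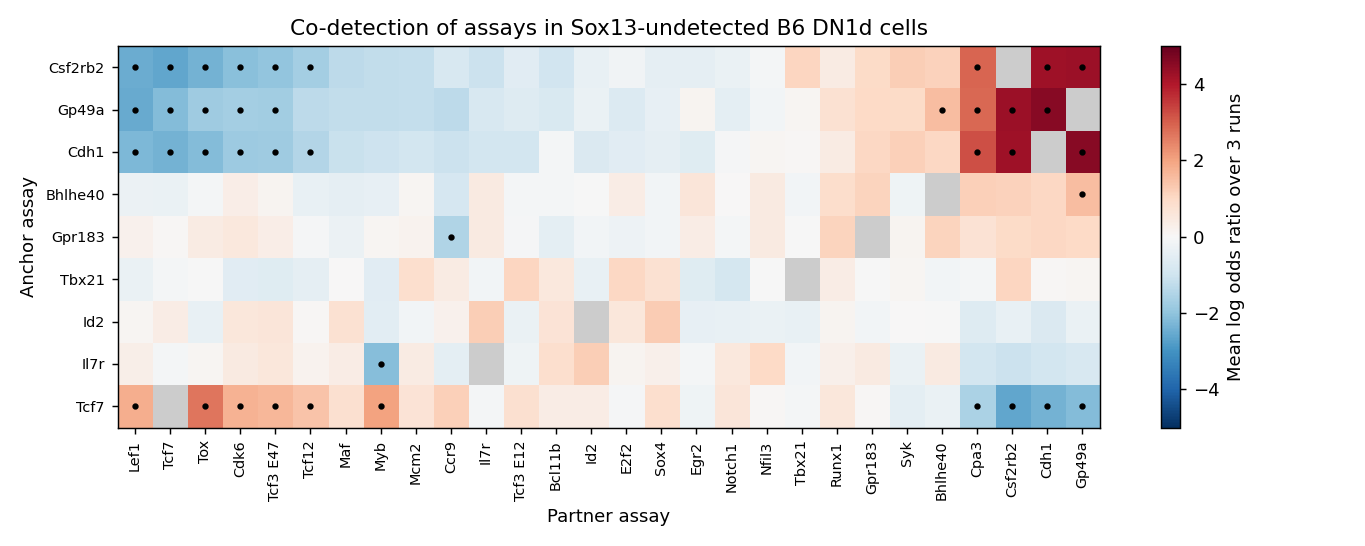
Colour gives the mean natural log odds ratio over 3 runs of detecting an anchor assay (rows) and a partner assay (columns) in the same Sox13-undetected B6 DN1d cell, red for more often and blue for less often, with grey for an assay against itself. Black dots mark pairs past the adjusted p of 0.05. The rows of Csf2rb2, Gp49a and Cdh1 run from blue at the left (Lef1, Tcf7, Tox) to red at the right (Cpa3 and each other), and the row of Tcf7 runs the opposite way.

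The upstream sequences of 3 of the genes detected together are shown to let their letters be compared. They are the 250 bases before a RefSeq transcript start of each gene (GRCm38.p6, written along the gene's strand; the last 28 bases for Cpa3 lie inside the span RefSeq gives for that gene), with capitals for the letters AGATAA or TGATAA, read on either strand, a form of the motif bound by GATA factors. The motif was chosen after the sequences were seen. RefSeq lists Gp49a as Lilr4b. The windows lie at chr15:78305722-78305971 on the minus strand for Csf2rb2, chr10:51480362-51480611 on the plus strand for Gp49a and chr3:20242182-20242431 on the minus strand for Cpa3.
Csf2rb2: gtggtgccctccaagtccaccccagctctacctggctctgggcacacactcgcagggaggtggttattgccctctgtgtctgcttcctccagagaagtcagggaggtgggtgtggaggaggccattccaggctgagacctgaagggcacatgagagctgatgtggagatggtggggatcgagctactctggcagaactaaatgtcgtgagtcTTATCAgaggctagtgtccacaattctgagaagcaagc
Gp49a: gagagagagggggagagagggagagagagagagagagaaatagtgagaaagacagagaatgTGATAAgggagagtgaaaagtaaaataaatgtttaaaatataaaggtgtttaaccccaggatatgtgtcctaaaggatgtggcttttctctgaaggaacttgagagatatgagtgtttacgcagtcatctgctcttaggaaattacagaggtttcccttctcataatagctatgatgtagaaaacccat
Cpa3: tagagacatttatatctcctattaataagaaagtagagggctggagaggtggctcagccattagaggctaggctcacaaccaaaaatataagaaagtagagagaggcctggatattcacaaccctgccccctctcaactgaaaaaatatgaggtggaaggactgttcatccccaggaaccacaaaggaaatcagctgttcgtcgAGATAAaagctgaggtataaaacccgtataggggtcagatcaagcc
Each window holds the motif at 1 place. Of 32851 RefSeq windows of this length 16.6% hold it, and of the 34 panel genes with a window 6 do, these 3 included. A match is a description of the letters and not a site of binding.

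Counting how many of Csf2rb2, Gp49a and Cdh1 a cell had showed few intermediates. In the Sox13-undetected cells 89 had 0 of the 3, 8 had 1, 8 had 2 and 25 had all 3. Cells with 2 or more numbered 7 of 36, 9 of 39 and 17 of 55, or 19.4%, 23.1% and 30.9% (24.5% ± 5.86). In Sox13-detected cells of the same runs they numbered 0, 1 and 0, 1 of 93 in all. In Sox13-undetected Rag1-/- cells they numbered 1 of 198. All 3 Sox13-undetected cells of the Tcrd-/- run had all 3 genes, a share whose exact interval runs from 29.2% to 100%, and 4 of its 83 Sox13-detected cells had 2 or more. None of 78 DN2 cells, 9 Sox13-undetected and 69 Sox13-detected, had 2 or more, which allows up to 3.85%. The set was drawn up after its values were seen, so these counts describe the cells and were not tested.

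**Figure D4:**
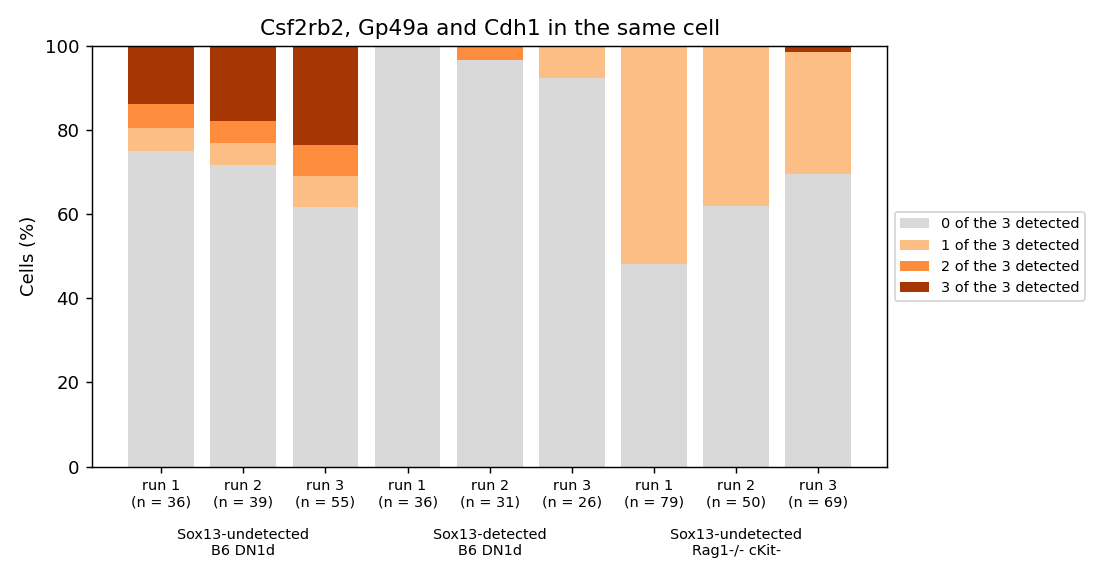
Each bar is 1 run, with the number of cells below it, and its coloured parts give the share of cells (%) in which 0, 1, 2 or all 3 of Csf2rb2, Gp49a and Cdh1 were detected. The dark part, all 3 genes, is present in each run of Sox13-undetected B6 DN1d cells and in 1 other bar, Rag1-/- run 3 with 1 cell, while Rag1-/- cells mostly hold 0 or 1.

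Splitting the cells by these 3 genes and by Tcf7 gave 31 cells with 2 or more of the 3 and no Tcf7 (7, 7 and 17 by run), 51 with Tcf7 and fewer than 2 (13, 14 and 24), 46 with neither (16, 16 and 14) and 2 with both (run 2). Like the set of 3 genes, these classes were drawn up after the values were seen and carry no test. The median Gapdh level over the cells of all runs was 14.84, 14.80 and 14.83 in the first 3 classes. In run 1 it was 14.95, 15.15 and 15.03, and in run 3 14.80, 14.75 and 14.57. Run 2 had 13.31, 13.78 and 14.15, lowest in the first class. The median number of other assays detected in these 3 classes was 15, 18 and 14.5, highest in the cells with Tcf7. It was 23.5 in the 2 cells with both.

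In the 31 cells of the first class, Tox, Lef1, Myb, Ccr9, Smo, Zbtb16 and the E47 form of Tcf3 were each detected in 0 cells, which allows up to 9.68%. Cdk6 and Tcf12 were each detected in 1. Bhlhe40 was detected in 51.6% of them, Cpa3 in 41.9%, Spi1 and the tyrosine kinase gene Syk in 38.7% each and Il7r in 35.5%. Gpr183 and Id2 varied between runs: Gpr183 was detected in 6 of 7, 5 of 7 and 7 of 17 of these cells and Id2 in 6 of 7, 2 of 7 and 9 of 17. Gata3 was found in 96.8%, Tbx21 in 93.5% and Scart2 in 100%, against 100%, 88.2% and 94.1% of the cells with Tcf7. Cpa3 was detected in 3 of 7, 3 of 7 and 7 of 17 cells by run, and Spi1 in 2, 2 and 8. The zeros above hold for this class only. Its rule leaves out cells with Tcf7, a gene detected together with Tox, Lef1, Myb and the E47 form, which can lower these counts. Among all 34 cells with Csf2rb2, Tox and Ccr9 were detected in 2 each and Lef1, Myb and the E47 form in 1 each. Smo and Zbtb16 were detected in 0 of those 34.

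The 51 cells with Tcf7 had Tox in 70.6%, Lef1 and Cdk6 in 58.8% each, Vg2-Jg1 in 37.3%, Smo, the signal transducer of the Hedgehog pathway, in 33.3% and Myb in 31.4%. Cpa3 was detected in 1 of them and Spi1 in 0, which allows up to 5.88%. Tox was detected in 6 of 13, 7 of 14 and 23 of 24 cells, most often in run 3. Vg2-Jg1 was detected in 5, 0 and 14 of these cells by run, and 20 of the 25 cells with Vg2-Jg1 in the whole population had Tcf7. The rule of this class leaves out cells with 2 or more of Csf2rb2, Gp49a and Cdh1. Among all 53 cells with Tcf7, Cpa3 was detected in 2 and Spi1 in 1.

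The 46 cells with neither had Id2 in 73.9% and Il7r in 71.7%, Lef1 and Cdk6 in 28.3% each, Tox in 23.9%, Zbtb16 in 17.4% and Vg2-Jg1 in 8.7%. Zbtb16, which encodes PLZF, a factor of innate lymphoid precursors, was detected in 4, 8 and 2 of all the Sox13-undetected cells by run. All 14 had both Id2 and Il7r, genes that 58 of the 130 cells had together.

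The Sox13-undetected cells were then compared with the Sox13-detected cells of the same runs, with run as a block. Sox13 chose the cells and was not tested. Fewer other assays were detected in them, 15.97 ± 0.453 per cell against 23.9 ± 0.0836 (SD, n = 3 runs, of 47), while the Gapdh level was 14.60 ± 0.61 against 14.67 ± 0.33. The difference in assay number moves with every result of this comparison. Of 45 assays tested 22 passed, or 48.9%: 5 (11.1%) were detected in more Sox13-undetected cells and 17 (37.8%) in fewer (limma on the empirical logit of the share). Here too the spread was pooled over assays, and each logit difference has an SE of 0.54.

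The 5 genes found in more Sox13-undetected cells were the 4 markers and Spi1. Csf2rb2 was detected in 22.2%, 23.1% and 30.9% of cells (25.4% ± 4.79) against 0 of 93 Sox13-detected cells, which allows up to 3.23% (logit difference 3.08, adjusted p = 9.55e-07). Cdh1 was detected in 13.9%, 20.5% and 32.7% against 0%, 3.23% and 0% (2.50, adjusted p = 4.58e-05). Bhlhe40 was detected in 30.6%, 25.6% and 36.4% against 2.78%, 3.23% and 3.85% (2.21, adjusted p = 3.02e-04). Gp49a was detected in 22.2%, 25.6% and 29.1% against 0%, 3.23% and 7.69% (2.16, adjusted p = 4.05e-04). Spi1 was detected in 5.56%, 10.3% and 18.2% against 0% in each run (2.08, adjusted p = 6.16e-04). In all 5 the lowest Sox13-undetected run lay above the highest Sox13-detected one. The 5 were picked by their calls on these same shares, so this separation adds nothing to the calls. Stratified by the number of assays detected, 4 of the 5 passed and Gp49a did not (adjusted p = 0.0534). Gp49a was also lost without run 1 (0.0634), and by mean level Cdh1 (0.0644) and Spi1 (0.118) were lost.

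Csf2rb2 or Gp49a was detected in 29 of the 31 Cdh1 cells and 14 of the 16 Spi1 cells. With the cells that had Csf2rb2 or Gp49a left out on both sides, an alternative chosen after seeing the data that kept 91 and 90 cells, Csf2rb2 and Gp49a could not be tested and 1 assay, Bhlhe40, was still detected in more Sox13-undetected cells. Cdh1 and Spi1 then had adjusted p of 0.482 each, which follows from that overlap and adds nothing to it.

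Some myeloid and mast cell markers, but not all, were detected in more Sox13-undetected cells, beside 11.1% of all assays tested. Of the 4 myeloid and dendritic markers in the panel 3 were detected in more of these cells. The fourth, Csf1r, the receptor that defines monocytes and macrophages, was at 0 in all Sox13-undetected cells. The summed level of the 4 was 4.48 to 7.56 cycles per cell over the runs against 0 to 0.67 in Sox13-detected cells. Of the 3 mast cell and basophil markers 2 were detected in more cells, and the third, Cpa3, was detected in 12.8% ± 3.85 against 21.9% ± 6.22 (adjusted p = 0.347). Their summed level was 4.67 to 7.202 against 2.01 to 2.27. Each sum adds cycles of assays with their own primers, with 0 for an undetected reaction. It is therefore not an amount and does not count separately from detection. Csf2rb2 and Gp49a are in both lists and are also among the markers given for these cells, so the 2 lists do not count separately. The part that myeloid or mast cells have in the result was not tested. The panel has none of the 3 B cell markers.

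Fewer Sox13-undetected cells had genes of the Tgd17 programme: of its 10 members tested 6 were detected in fewer cells, beside 37.8% of all assays tested, and 4 did not pass, with a median logit difference of -3.17 against -0.70 over all assays. In the Sox13-undetected cells the kinase gene Blk was found in 1.21%, the ETS factor gene Etv5 in 5.1% and the receptor genes Cd163l1 and Il17re in 0.926% and 3.63%, against 81.7%, 72.4%, 59.1% and 52.6% of Sox13-detected cells (logit differences -5.52, -4.07, -4.45 and -3.51). Maf, a bZIP factor of the lineage, was still found in 48.8% ± 8.27 against 92.7% ± 7.73 (-2.84). Scart2, Sox4, Syk and Egr2, the 4 that did not pass, were found in 95%, 82%, 16.7% and 31% of the Sox13-undetected cells, with adjusted p of 0.174, 0.0789, 0.0574 and 0.995. Scart2 was detected in nearly all cells of both classes, so that its share can show little. Its median level in cells with it detected was 8.85, 5.81 and 9.61 by run against 10.48, 11.43 and 13.47 in Sox13-detected cells, lower in each run. Scart2 and Sox4 passed when the mean level was tested in place of the share, and also without run 3.

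Of 11 T lineage assays 4 were detected in fewer cells and 7 did not pass, a share close to the 37.8% of all assays detected in fewer cells. Tcf7 was detected in 40.3% against 88.6% ± 7.76 (-2.45, adjusted p = 6.43e-05), Tcf12 in 28.2% against 71.8% (-1.87), Bcl11b in 65% against 76.9% (-1.88) and Lef1 in 33.9% against 70.4% (-1.55). Tcf12 and Lef1 were lost when cells were stratified by assay number (adjusted p = 0.0742 and 0.185), and Lef1 also without run 2 (0.0895) or run 3 (0.105). Bcl11b was lost without the block (0.259), without run 1 (0.157), without run 2 (0.141) and when stratified (0.188). In run 3 Bcl11b went the other way, at 40% of Sox13-undetected against 30.8% of Sox13-detected cells. Gata3, Runx1, Ets1, Notch1, Rag2 and both forms of Tcf3 did not pass.

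The other genes detected in fewer cells were Myb (15.4% against 87%, -4.11), the granzyme gene Gzma (0.926% against 36.7%, -3.53), Ccr9 (15.4% against 79.3%, -3.03), Tox (36.3% against 88.9%, -2.63), Vg2-Jg1 (17.9% against 72.4%, -2.61), Vd4-Jd1 (2.64% against 14.2%, -1.81) and Smo (14.2% against 48.3%, -1.80). Smo and Vd4-Jd1 were lost when stratified (adjusted p = 0.066 and 0.0787), Smo also without run 2 (0.128) and Vd4-Jd1 without run 3 (0.0566). The sorting genes Id2, Il7r, Gpr183 and Tbx21 did not pass. Id2 was detected in 71.3% ± 13.05 against 59.2% ± 22.6, Il7r in 56.2% ± 7.53 against 43.8% ± 19.7, Gpr183 in 43.7% ± 4.92 against 28% ± 16.8 and Tbx21 in 86.7% ± 7.55 against 92% ± 6.99, with adjusted p between 0.275 and 0.445. Of the 5 innate lymphoid genes 1 was detected in fewer (Tox), beside 37.8% of all assays tested. The 4 cell cycle and replication genes, Mcm2, Dna2, E2f2 and Cdk6, did not pass (unadjusted limma p of 0.540 or more). Counts in lists this short say little beside that share.

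Sox13-undetected cells of B6 DN1d were also set beside the 198 Sox13-undetected Rag1-/- cKit- cells (79, 50 and 69 by run), to ask how far cells that meet the same rule are alike. Genotype, age, the CD24 gate and run differ together here and cannot be told apart. Rag1-/- cells had 22.8 ± 1.12 other assays detected per cell and a Gapdh level of 15.19 ± 0.40. Of 44 assays tested 28 passed, or 63.6%: 7 (15.9%) were detected in more B6 DN1d cells and 21 (47.7%) in fewer.

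Among those found in more B6 DN1d cells were Csf2rb2 (25.4% against 0.483%, logit difference 3.45, adjusted p = 2.80e-06), Gp49a (25.7% ± 3.43 against 1.39% ± 1.45, 2.92), Cpa3 (12.8% against 0 of 198 cells, which allows up to 1.52%, 3.00) and Spi1 (11.3% ± 6.38 against 0.905% ± 0.789, 2.08). Smo was found in 14.2% against 3.74% (1.27, lost without Rag1-/- run 2 or 3 at adjusted p of 0.109 and 0.0647). Vg2-Jg1 and Vd4-Jd1 were also in this group, at 0 in the Rag1-/- cells, which cannot rearrange receptor genes. The direction of these 2 calls was therefore fixed in advance, and both are counted in the 15.9% given below. Vd4-Jd1 was lost without B6 DN1d run 2 (0.121) and without Rag1-/- run 1 (0.0995) or run 2 (0.0625). All 3 myeloid markers tested and all 3 mast cell markers were thus detected in more B6 DN1d cells, beside 15.9% of all assays. Csf2rb2 and Gp49a are in both lists, and Csf1r, also a myeloid marker, was at 0 in both groups and was not tested. Summed levels of the 2 lists in Rag1-/- cells were 0 to 0.50 and 0 to 0.38. Tested by mean level, Spi1 (adjusted p = 0.132), Cpa3 (0.0543), Vg2-Jg1 (0.146), Smo (0.149) and Vd4-Jd1 (0.643) were lost, and Spi1 also without cells that had Csf2rb2 or Gp49a (0.11). In the 1 run of DN2 cells Cpa3 was detected in 9 of 9 Sox13-undetected and 69 of 69 Sox13-detected cells. Spi1 was detected in 6 of 9 and 57 of 69 of them, Gp49a in 0 and 1, and Csf2rb2 in 0. Of 83 Sox13-detected Tcrd-/- cells 61 had Cpa3 and 2 had Spi1. Cpa3 and Spi1 were thus not particular to the Sox13-undetected B6 DN1d cells.

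Cdh1 did not follow its partners. It was detected in 22.4% ± 9.56 of the B6 DN1d cells and 39.2% ± 10.9 of the Rag1-/- cells, a difference that did not pass (-0.81, adjusted p = 0.107). Of the 79 Rag1-/- cells with Cdh1, 1 had Csf2rb2, 1 had Gp49a and 0 had Cpa3, while 78 had Tcf7 and 79 had Id2. Of the 31 B6 DN1d cells with Cdh1, 27 had Csf2rb2, 27 had Gp49a, 14 had Cpa3, 2 had Tcf7 and 17 had Id2. Bhlhe40 was likewise found in fewer B6 DN1d cells, in 30.9% against 62.8% ± 8.68 (-1.32, adjusted p = 0.00858, or 0.0518 without B6 DN1d run 2), and 62 of the Rag1-/- cells with Cdh1 had it. The same marker gene thus lay in cells with different partners in the 2 populations, which was not tested.

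All 5 innate lymphoid genes were detected in fewer B6 DN1d cells, beside 47.7% of all assays, in cells with fewer assays detected overall. Id2 was detected in 71.3% ± 13.05 against 99.6% ± 0.731 (-3.57, adjusted p = 2.80e-06), Il7r in 56.2% against 92.1% ± 1.61 (-2.14), Zbtb16 in 11.8% ± 8.46 against 56.8% ± 9.34 (-2.39), Nfil3 in 10.1% ± 2.40 against 52.4% ± 9.17 (-2.20) and Tox in 36.3% against 81.4% ± 7.44 (-2.07). These 5 passed under each of the 12 alternatives run. Tcf7 was detected in 40.3% against 95.6% ± 2.68 (-3.47, adjusted p = 3.17e-06), Tcf12 in 28.2% against 76.3% (-2.09), and Notch1 and the E47 form of Tcf3 in 25.4% and 24.7% against 58.2% and 59.6% (-1.38 and -1.48). Lef1, Bcl11b, Gata3, Runx1, Ets1 and the E12 form did not pass.

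Of the Tgd17 programme 6 of 10 were detected in fewer B6 DN1d cells, beside 47.7% of all assays, with a median logit difference of -1.28 against -0.91 over all assays. Among them were Cd163l1 (0.926% against 76.6%, -5.27), Il17re (3.63% against 28.2%, -2.48), Blk (1.21% against 9.72%, -1.57), Syk (16.7% against 46.4%, -1.51) and Maf (48.8% against 73.5%, -1.06). Blk was lost without Rag1-/- run 3 (adjusted p = 0.0711), and Maf without B6 DN1d run 1 (0.0506) or run 2 (0.0516) or Rag1-/- run 3 (0.111). Gzma was found in 0.926% against 48.9% (-4.04) and Cdk6 in 35% against 71.3% (-1.53). Mcm2, a replication licensing gene, was found in 30.8% against 59.6% (-1.18) and was lost without B6 DN1d run 2 (0.0704) or Rag1-/- run 3 (0.0591). Tbx21 and Gpr183 passed narrowly, at 86.7% against 96.9% (-1.31, adjusted p = 0.0139) and 43.7% against 66.7% (-0.94, adjusted p = 0.0447). Each was lost under 5 of 12 alternatives, among them a window of 10 to 25 detected assays per cell (0.114 and 0.165). Tbx21 was lost without B6 DN1d run 2 (0.0983) or Rag1-/- run 1 (0.0602), and Gpr183 without B6 DN1d run 1 (0.137) or run 2 (0.0901) or Rag1-/- run 2 (0.0775) or run 3 (0.16).

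**Figure D5:**
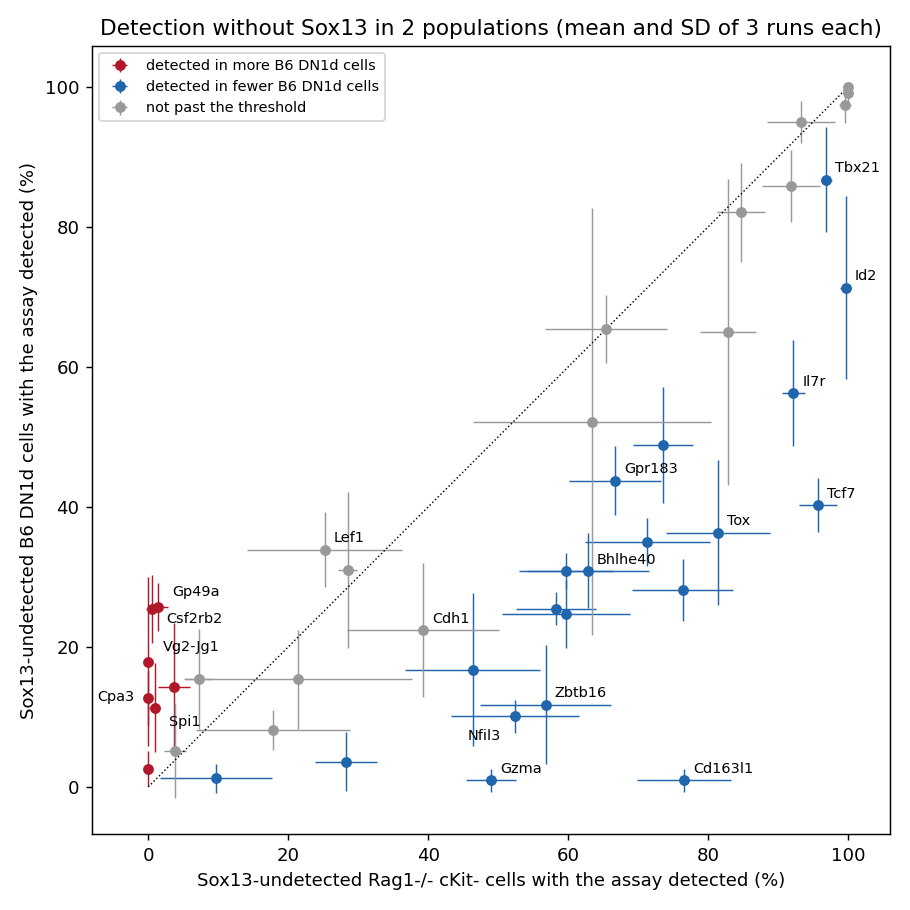
Each point is 1 assay, with the mean share of Sox13-undetected Rag1-/- cKit- cells (%) on the horizontal and of Sox13-undetected B6 DN1d cells (%) on the vertical axis, bars of 1 SD over 3 runs, and a dotted line of equal shares. Red and blue points passed the adjusted p of 0.05. Most coloured points lie under the line, with Id2, Il7r, Tcf7 and Zbtb16 far below it, and Csf2rb2, Gp49a, Cpa3, Spi1 and Vg2-Jg1 lie at the left edge.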

How the data were processed

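Per the labels' protocols, cells were captured and lysed on a Fluidigm C1, reverse transcribed, preamplified for 18 cycles with pooled primers and quantified over 30 PCR cycles with EvaGreen dye. The authors deposited 1 threshold cycle per assay and cell, without normalization, and 50.5% of 29280 reactions stood at 24, which was read as not detected. The labels do not say how Ct was called or who set this ceiling. A failed reaction and an absent transcript give the same value. No doublet caller was run on 48 assays, and 0 pairs of cells held identical values.

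From these values the level (24 minus Ct) and detection were computed for each cell. Cells were not replicates: each run, read from the cell titles, gave 1 value per assay, an empirical logit of the detected share (0.5 added to each side), or per pair, the log odds ratio (0.5 added to each cell of the table). Pairs needed both assays in 5% to 95% of cells and at least 3 cells with and without each in every run. limma 3.58.1 in R 4.3.3 tested these values, with run as a block where both classes came from the same runs, since they are cells of 1 capture. Benjamini-Hochberg adjustment ran over all assays or pairs fitted, with a threshold of 0.05. The scripts were tested on simulated data. Intervals of shares are exact (Clopper-Pearson, 95%), a count of 0 allows 3 cells, and both cover counting error only.

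The cells, the gene lists and the tests were chosen with earlier results of these data known. The rule for naming took every assay called, or the 25 of largest difference if more were called, plus the sorting and marker genes and the 20 largest of the pairs. Further genes named by class were chosen after their values were seen. One further assay is counted but not reported here. RefSeq (GRCm38.p6) held 43 of the 48 names as a symbol and 2 as a synonym, and 3 had no match. Python 3.11.15 made the tables.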

Additional observations from a re-analysis of the deposited data

How the results depend on the processing

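The recomputed values numbered 2883, over all assays and pairs fitted and the shares of 11 sorting and marker genes. Of these 2692 stayed the same, 117 calls were lost, 73 values newly passed, 1 share moved (Tbx21, above) and 0 calls turned direction. Staying the same means keeping to 1 side of the threshold, or, for 54 shares, a shift below the SD over runs. The 2692 include values never called, so they do not give the share of calls kept. Of the calls lost 61 and of the values gained 48 were pairs. Against Sox13-detected cells, the counts of 5 assays in more and 17 in fewer cells were equal with and without the replicate block, with Bcl11b lost and Sox4 gained. The count of assays detected in more cells fell to 3 with the mean level in place of the share and to 1 without cells that had Csf2rb2 or Gp49a, where these 2 assays could not be tested, and ran from 4 to 5 with each run left out (14 to 19 in fewer). Against Rag1-/- cells this count fell from 7 to 2 with the mean level. It fell to 4 without cells that had Csf2rb2 or Gp49a, where these 2 assays again could not be tested. With each run left out it ran from 5 to 7 (16 to 26 in fewer). Of pairs, 21 were detected together more often when cells were stratified by assay number and 33 by a Spearman correlation of level. With each run left out they ran from 6 to 12 more often and from 3 to 14 less often. The causes were not tested. With 36 to 55 cells per run, exact intervals of a share span up to 34.2 percentage points, and at 3 runs a group the precision rests on the spread pooled over assays.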
